A study of Mus musculus with 36 samples.

Results

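The 10 genes Nfe2l2, Nqo1, Gclc, Gclm, Hmox1, Txnrd1, Srxn1, Sod2, Cat and Gpx1, which encode the transcription factor NRF2, several of its targets and central antioxidant enzymes, were followed through the day in mouse liver under intermittent hypoxia (IH) and under normoxia. They were taken by symbol, as 10 of the 24346 symbols in the expression tables. The choice was made with earlier results of these data known. All 10 were found, and all passed the filter for testing, which asked for 0.1 FPKM (fragments per kilobase of transcript, scaled to the mapped fragments of the library) or more on average over all libraries. The animals were wild-type male C57BL/6JRj mice aged 16 weeks, kept 5 per cage with 12 h of light and 12 h of dark and free access to chow. IH mice received 60 cycles per hour between 5% and 21% inspired oxygen from ZT0 to ZT8 each day for 4 weeks, where Zeitgeber time (ZT) 0 is lights on, and control mice received cycles of air in the same way. Each condition was sampled at ZT0, ZT4, ZT8, ZT12, ZT16 and ZT20 with 3 mice per time point, giving 36 libraries of polyadenylated RNA. The hypoxic hours all lie in the light phase, so hypoxia and light cannot be told apart within the IH mice alone, and the control mice give the effect of the hour.

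NRF2 is a transcription factor that KEAP1 holds in the cytoplasm and marks for degradation. Oxidants and electrophiles modify KEAP1, NRF2 then accumulates and pairs with small MAF proteins, and the pair binds antioxidant response elements near genes for glutathione synthesis, quinone reduction, heme breakdown and the thioredoxin system. Because much of this control acts on the protein, the level of Nfe2l2 RNA is only one part of it. Catalase, mitochondrial superoxide dismutase and glutathione peroxidase remove hydrogen peroxide or superoxide directly and are abundant in hepatocytes.

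The core of the antioxidant response element, TGACNNNGC, was looked for on both strands in the promoters that RefSeq gives for GRCm38.p6, each from 250 bases before to 50 bases after a transcription start. Of the 10 genes, 8 had at least 1 promoter in that set, with 10 promoters among them, and 4 of the 8 held the core. Gclc and Hmox1 had no promoter in the set and were not searched. Among all 32851 promoters 12.4% held it, and among all 27025 genes 14% had it in at least 1 promoter. The 4 matches are shown because their letters match the core that NRF2 is known to bind, and binding was not measured. Each is given 5′ to 3′ on the strand of its gene, with the core in capitals. In the last 3 the core reads on the opposite strand, so that its reverse complement GCNNNGTCA is in capitals.
Nfe2l2, chr2:75704885-75704913, core starting 240 bases before the start: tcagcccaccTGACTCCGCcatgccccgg
Gclm, chr3:122245413-122245441, core starting 134 bases before the start: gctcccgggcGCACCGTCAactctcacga
Txnrd1, chr10:82859104-82859132, core starting 92 bases before the second of the starts listed: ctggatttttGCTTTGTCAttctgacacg
Srxn1, chr2:152105542-152105570, core starting at transcribed base 29: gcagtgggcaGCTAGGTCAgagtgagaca

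The E-box CACGTG, in 7.15% of promoters, and the cAMP response element TGACGTCA, in 1.79%, did not occur in the promoters of the 8 genes. These matches describe the letters of the window only. As the values below show, the 4 genes with the core did not move together at ZT4: Nfe2l2 was higher in IH, Txnrd1 and Srxn1 were lower by values that missed the threshold, and Gclm overlapped between the conditions.

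The libraries had similar FPKM sums and correlations within their groups, with 1 exception. The FPKM of the symbols analysed summed to between 540095 and 579428 in 35 libraries and to 758113 in control ZT12 replicate 2, which also had the lowest correlation with its group (down to r = 0.949, against 0.978 or more elsewhere). In that library Nqo1, Gclc, Gclm, Txnrd1 and Cat were the lowest of all 36 and Hmox1 and Gpx1 the highest. Its summed neutrophil markers were 211 FPKM, against 1.38 in the lowest library of its group, and its summed Kupffer cell markers 429 FPKM, against 85.8. Acute-phase genes showed that composition differed in more than that library. Their sum reached 64301 FPKM in IH ZT0, against 2913 in the lowest library of that group. In control ZT16 it reached 38153 FPKM, against 2597. Saa1, an acute-phase gene, exceeded 10000 FPKM in control ZT12 replicate 2, in control ZT16 replicate 3 and in IH ZT0 replicate 2. A call below that changed without these libraries is also given without them. Hepatocyte markers were abundant throughout, led by Alb with a mean of 32506 FPKM. In whole liver, fewer cells of a type and less RNA per cell cannot be told apart.

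The 10 genes spanned a wide range of levels. Gpx1, the cytosolic glutathione peroxidase, had a mean of 1244 FPKM over the 36 libraries, and Cat, the peroxisomal catalase, 1143 FPKM, above 99.6% and 99.5% of the genes tested. Gclc and Gclm, the catalytic and modifier subunits of glutamate-cysteine ligase, had means of 74.2 and 47.7 FPKM. Sod2, the mitochondrial superoxide dismutase, and Txnrd1, the cytosolic thioredoxin reductase, followed at 40.9 and 36.9 FPKM. Nfe2l2 lay at 26.6 FPKM, Srxn1, the sulfiredoxin that repairs overoxidized peroxiredoxins, at 11.1, Hmox1, the inducible heme oxygenase, at 6.63, and Nqo1, a quinone reductase, at 2.69. FPKM values are per transcript length, so these levels can be set side by side. The ranges of Gclm, Sod2 and Txnrd1 over the libraries overlapped one another.

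**Figure D1:**
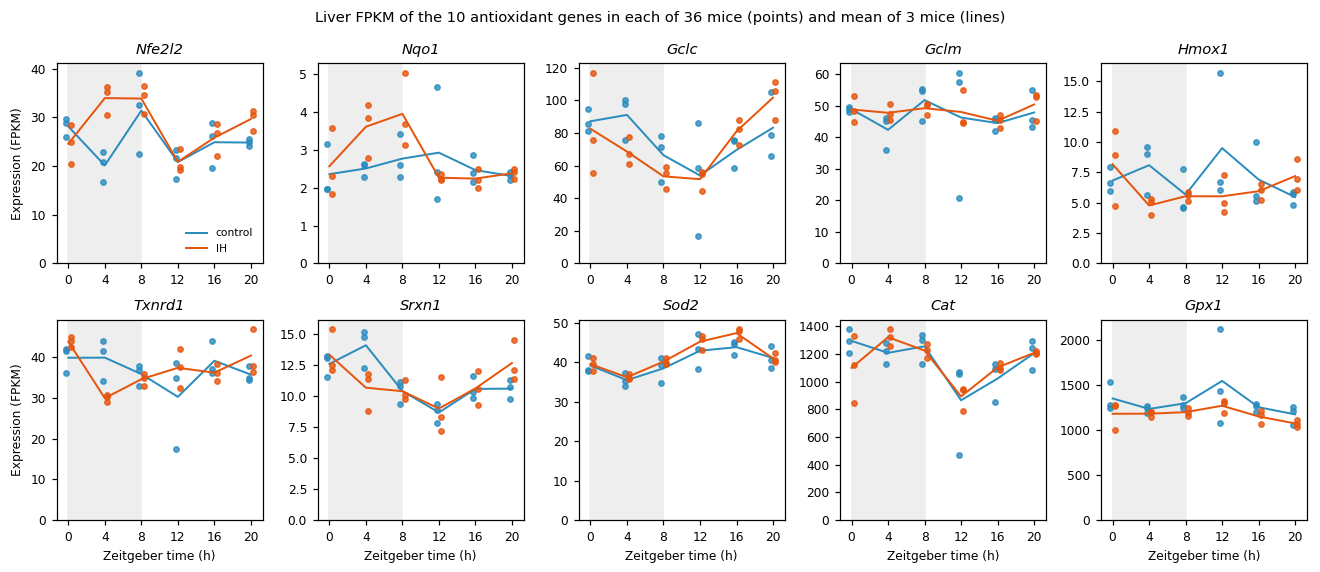
Expression in FPKM (vertical axis, from 0) of the 10 genes against Zeitgeber time in hours, with 1 point per mouse (control blue, IH orange), lines through the means of 3 mice and the hours ZT0 to ZT8 shaded. The Nfe2l2 lines part at ZT4, where the IH mice sit at 30.5 to 36.2 and the controls at 16.7 to 22.8, and control ZT12 replicate 2 lies apart in Gclc, Gclm, Hmox1, Txnrd1, Cat and Gpx1.

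The first question was whether IH changed the level of these genes during the hypoxic hours. None of the 10 passed the threshold (limma, Benjamini-Hochberg adjusted p under 0.05 over 13215 genes) between IH and control over ZT0, ZT4 and ZT8, where 0.265% of all genes did. At an unadjusted p under 0.05, which 12.2% of all genes met, 2 of the 10 were counted, both higher in IH. The median difference of the 10 was -0.08 and that of all genes 0.02, on the log2(FPKM + 1) scale used for every difference here. On this scale a difference understates the change of a gene of low level such as Nqo1.

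Nfe2l2 ranged in the 9 control libraries of ZT0 to ZT8 from 16.7 to 39.2 FPKM with a median of 26.0, and in the 9 IH libraries from 20.4 to 36.4 with a median of 30.6. The difference was 0.22 ± 0.09 (SE; limma adjusted p = 0.316). Nqo1 ranged from 1.95 to 3.40 FPKM in control, median 2.60, and from 1.82 to 5.03 in IH, median 3.56. The groups overlapped for both genes, although the 5 highest Nqo1 values of the hypoxic hours were all of IH mice. The Nqo1 difference was 0.28 ± 0.11 (limma adjusted p = 0.288), and it reached an adjusted p of 0.0487 without the 3 libraries high in Saa1. With ZT0, when the daily hypoxia only begins, left out of the window, Nfe2l2 passed the threshold at 0.44 (limma adjusted p = 0.0427). These 2 fits called 705 and 269 of the 13215 genes, against 35 with all libraries and ZT0 in the window.

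The other 8 genes had differences from -0.28 for Gclc to 0.04 for Sod2 in the hypoxic hours. For Sod2 the 95% interval ran from -0.05 to 0.12, for Gpx1 from -0.29 to 0.04 and for Cat from -0.28 to 0.17. For Gclc it ran from -0.67 to 0.11 over all libraries and from -0.53 to -0.03 without control ZT12 replicate 2, where the difference was again -0.28 (limma adjusted p = 0.220).

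Outside the hypoxic hours, over ZT12, ZT16 and ZT20, none of the 10 passed the threshold either, where 0.0832% of all genes did, and none met an unadjusted p under 0.05, where 10.1% did. The differences ran from -0.16 for Gpx1 to 0.24 for Gclc, and the latter was 0.02 without control ZT12 replicate 2. Without that library Gclm went from 0.10 to -0.07 and Cat from 0.09 to -0.04. Whether the effect of IH itself differed between the hypoxic and the remaining hours was tested as an interaction. None of the 10 passed, against 0.0227% of all genes. Nqo1 had the smallest p, with an interaction of 0.37 ± 0.16 (unadjusted p = 0.0265, limma adjusted p = 0.435). Gclc had the opposite sign at -0.52 ± 0.27 (limma adjusted p = 0.519), and -0.30 without control ZT12 replicate 2.

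The time points were then compared singly. At ZT4, in the middle of the daily hypoxia, 1 of the 10 genes passed the threshold, and 1.16% of all genes did. That gene was Nfe2l2. Its control values were 20.9, 16.7 and 22.8 FPKM and its IH values 35.2, 30.5 and 36.2. Each IH mouse was above each control mouse, and the mean was 1.69-fold higher. The control mean at ZT4, 20.1 FPKM, was the lowest of the control means, close to 20.8 at ZT12. The others were 28.1 at ZT0, 31.4 at ZT8, 24.9 at ZT16 and 24.8 at ZT20. The IH mean at ZT4 was 34.0 FPKM, within the control range at ZT8 of 22.4 to 39.2. The difference was 0.73 ± 0.16 (limma adjusted p = 0.0228). Leaving out 1 library at a time, the call was lost without any 1 of the 3 IH mice of ZT4 or without control ZT4 replicate 1 or 2, and it was lost when FPKM were rescaled to a common sum (adjusted p = 0.0869). Over all alternatives the difference stayed between 0.61 and 0.83 and the adjusted p between 3.68e-04 and 0.107.

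Txnrd1, Srxn1 and Hmox1, all known NRF2 targets, had lower values in IH at ZT4 without passing the threshold. Txnrd1 was at 44.0, 34.2 and 41.5 FPKM in control and at 30.7, 30.2 and 28.9 in IH. Srxn1 was at 15.2, 12.3 and 14.8 FPKM in control and at 11.8, 11.4 and 8.83 in IH. Hmox1 was at 9.58, 5.67 and 9.00 FPKM in control and at 3.97, 5.27 and 5.07 in IH. None of these 3 genes overlapped between the conditions, and 7.79% of all genes were lower without overlap. The differences were -0.39 ± 0.16 for Txnrd1 (limma adjusted p = 0.220), -0.37 ± 0.13 for Srxn1 (adjusted p = 0.155) and -0.63 ± 0.28 for Hmox1 (adjusted p = 0.244). All 3 met an unadjusted p under 0.05 in that direction, which 3.65% of all genes did. Txnrd1 passed the threshold without control ZT12 replicate 2 (adjusted p = 0.0216), a library of another time that enters the shared spread, and Txnrd1 and Hmox1 passed without the 3 libraries high in Saa1 (adjusted p = 0.0153 and 0.0458). In these 2 fits 799 and 1344 of the 13215 genes passed at ZT4, against 153 over all libraries.

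Nqo1 was higher in IH at ZT4, at 4.18, 3.84 and 2.79 FPKM against 2.62, 2.29 and 2.60 in control, a difference of 0.38 ± 0.19 (limma adjusted p = 0.322). In all, 5 of the 10 genes did not overlap between the conditions at ZT4, 2 of them higher and 3 lower, where 26.7% of all genes were higher without overlap. Gclc, Gclm, Sod2, Cat and Gpx1 overlapped, with differences from -0.40 ± 0.33 for Gclc to 0.18 ± 0.21 for Gclm. Differences of both signs were thus seen among Nfe2l2 and its targets at this hour.

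Markers of other cells and acute-phase genes at ZT4 stood as follows, with no gene of these lists past the threshold. Summed Kupffer cell and macrophage markers were 51.1 to 94.6 FPKM in IH and 74.2 to 140 in control, which overlap, with 0 of 9 genes past the threshold and a median difference of -0.40. Summed neutrophil markers were 1.01 to 2.17 FPKM in IH and 2.42 to 6.46 in control (0 of 4 tested past the threshold), with Retnlg at 0 in 17 of the 36 libraries. Summed acute-phase genes were 3015 to 3337 FPKM in IH and 3461 to 9938 in control, with 0 of 7 past the threshold and a median difference of -2.24. Hepatocyte markers summed to 53641 to 56764 FPKM in IH and 46075 to 47648 in control. For lymphocyte, endothelial, stellate cell and cholangiocyte markers the medians were 0.16, 0.23, 0.13 and 0.17, and for the 2 of 5 red blood cell markers tested -0.26. The part of these markers in the values of Hmox1, Txnrd1 and Srxn1 was not tested.

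**Figure D2:**
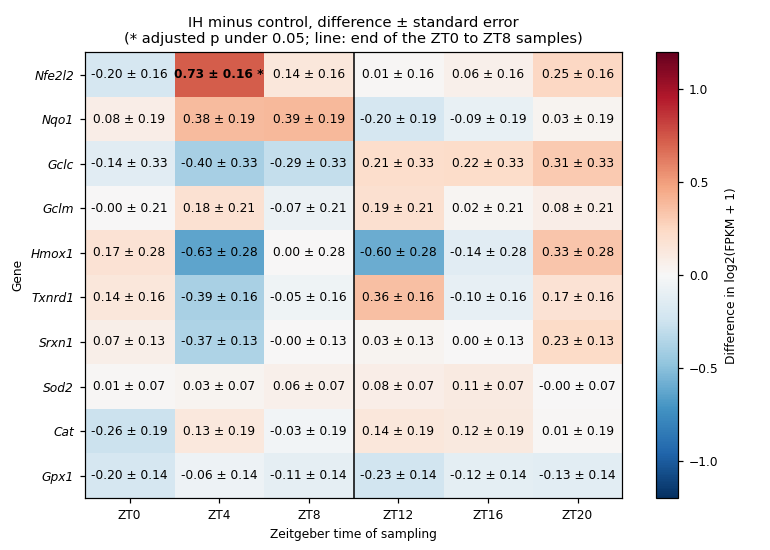
Difference between IH and control in log2(FPKM + 1), with its standard error (limma), for the 10 genes (rows) at the 6 time points (columns), 3 mice per condition at each. Red is higher and blue lower in IH, and the asterisk marks the 1 value with an adjusted p under 0.05, Nfe2l2 at ZT4 (0.73 ± 0.16).

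At the other 5 time points none of the 10 genes passed the threshold. At ZT8 the Nfe2l2 groups overlapped again, with control at 22.4, 32.6 and 39.2 FPKM and IH at 30.6, 36.4 and 34.6. Nqo1 at ZT8 reached 5.03, 3.67 and 3.13 FPKM in IH against 2.29, 3.40 and 2.60 in control, a difference of 0.39 ± 0.19, and these groups overlapped as well. Over all genes 0.00757% passed at ZT8, 0.772% at ZT12, 0.00757% at ZT16 and 0% at ZT0 and ZT20, where 7.57% and 4.74% met an unadjusted p under 0.05 and none of the 10 genes did.

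Groups without overlap were also seen for Txnrd1 at ZT0, for Sod2 at ZT16 and for Hmox1, Nfe2l2 and Srxn1 at ZT20, each higher in IH. The share of all genes in that position was 4.59% at ZT0, 10.0% at ZT16 and 11.8% at ZT20. At ZT20 Nfe2l2 was at 31.3, 27.3 and 30.4 FPKM in IH and at 24.9, 25.5 and 24.1 in control. At ZT12 Txnrd1 differed by 0.36 and Hmox1 by -0.60, both at an unadjusted p under 0.05 (24.6% of all genes). These values were 0.02 and -0.20 without control ZT12 replicate 2, where Txnrd1 stood at 17.5 FPKM (38.5 and 34.8 in the other 2 mice) and Hmox1 at 15.7 FPKM (6.70 and 6.07). Without it the ZT12 differences of Gclc, Gclm and Cat changed sign, from 0.21 to -0.46, from 0.19 to -0.30 and from 0.14 to -0.26, none of them called. With the replicate number as a block, the genes called at ZT12 fell from 102 to 1, and none of the 10 was called in either fit.

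The second question was how the genes changed with the hour within each condition. In control mice 3 of the 10 genes differed between ZT0 to ZT8 and ZT12 to ZT20, where 20.5% of all genes did, and in IH mice 3 of the 10 did, where 25.8% of all genes did. Srxn1 and Cat rose and Sod2 fell in the light-phase hours of control mice. Nfe2l2 and Nqo1 rose and Sod2 fell in the hypoxic hours of IH mice.

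Sod2 was the gene called in both conditions. In control mice it ranged from 33.9 to 41.7 FPKM in ZT0 to ZT8, median 37.8, and from 38.3 to 47.1 in ZT12 to ZT20, median 43.4. In IH mice the ranges were 35.7 to 41.2, median 39.5, and 40.1 to 48.4, median 45.9. The medians were lower in the light-phase hours in both conditions, with overlap of the ranges. The differences were -0.17 ± 0.04 in control (limma adjusted p = 0.00425) and -0.20 ± 0.04 in IH (adjusted p = 7.65e-04), and the interaction was -0.03, with a 95% interval from -0.15 to 0.09. The control call was lost when FPKM were rescaled to a common sum.

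Nqo1 differed between the hours in IH mice, with overlap of the ranges. Its IH values ran from 1.82 to 5.03 FPKM in ZT0 to ZT8, median 3.56, and from 2.00 to 2.50 in ZT12 to ZT20, median 2.23. In control mice the medians were 2.60 and 2.38 FPKM. The 7 highest values of the hypoxic hours lay above each value of the remaining hours, and the 2 lowest, both from ZT0, did not. The difference was 0.38 ± 0.11 in IH (limma adjusted p = 0.0127), kept under all 46 alternatives, and 0.01 ± 0.11 in control (adjusted p = 0.968). As given above, the interaction did not pass the threshold, so the 2 conditions are not shown to differ in it.

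Nfe2l2 was higher in the hypoxic hours of IH mice by 0.26 ± 0.09 (limma adjusted p = 0.0367), a call lost under 13 of 46 alternatives, 10 of which left out 1 IH mouse (ZT0 replicate 1 or 3, ZT4 replicate 1 or 3, ZT8 replicate 2 or 3, ZT12 replicate 1 or 3, ZT16 replicate 2 or ZT20 replicate 2). In control mice the difference was 0.14 ± 0.09 (adjusted p = 0.286). Srxn1 in control mice ran from 9.32 to 15.2 FPKM in ZT0 to ZT8, median 12.3, and from 7.82 to 11.6 in ZT12 to ZT20, median 9.84, a difference of 0.28 ± 0.08 (limma adjusted p = 0.0108) that missed the threshold with scaling by the median of ratios. In IH mice it was 0.10 ± 0.08 (adjusted p = 0.396). The interaction for Srxn1 was -0.19, with a 95% interval from -0.41 to 0.04.

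Cat in control mice ran from 1127 to 1380 FPKM in ZT0 to ZT8, median 1280, and from 471 to 1294 in ZT12 to ZT20, median 1085. The difference was 0.33 ± 0.11 (limma adjusted p = 0.0375). It fell to 0.20 without control ZT12 replicate 2, which gave the value of 471, and then missed the threshold (adjusted p = 0.0501). In IH mice the difference of Cat was 0.19 ± 0.11 (adjusted p = 0.234), which passed at the same size without that control library (adjusted p = 0.0348) and at 0.25 without the 3 libraries high in Saa1 (adjusted p = 4.47e-04). Without that control library 4771 genes were called between the hours in IH, against 3416 over all libraries. The control call was lost under 11 of 46 alternatives, 9 of which left out 1 control mouse (ZT0 replicate 1 or 3, ZT4 replicate 1 or 2, ZT8 replicate 2 or 3, ZT12 replicate 2, ZT16 replicate 3 or ZT20 replicate 1). Gclc, Gclm, Hmox1, Txnrd1 and Gpx1 were not called between the hours in either condition.

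**Figure D3:**
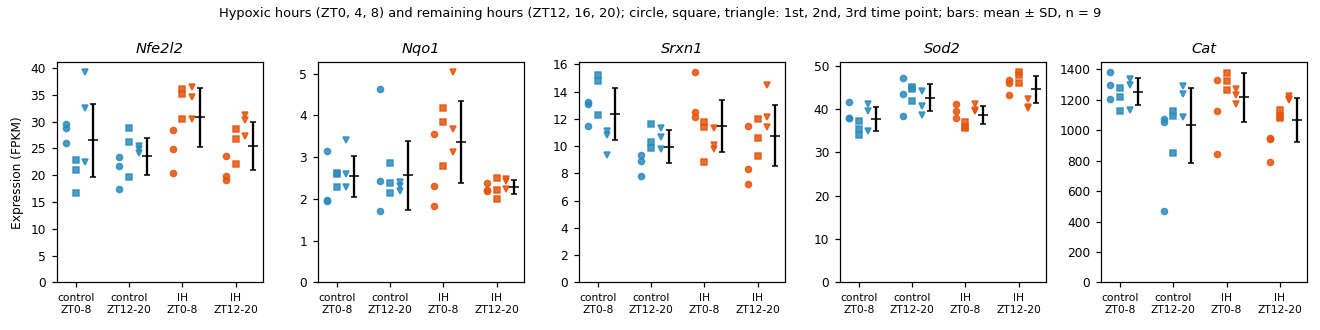
Expression in FPKM (vertical axis, from 0) of the 5 genes called between the hours in at least 1 condition, with 9 mice in each of 4 groups (control blue, IH orange; circles, squares and triangles are the earliest, middle and latest time point of the group) and black bars for mean ± SD. Sod2 sits lower in ZT0 to ZT8 in both conditions, Nqo1 spreads upward to 5.03 in the hypoxic hours of IH mice, with 1 control value of 4.64 at ZT12, and 1 control mouse at 471 lies below the other Cat values.

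Daily rhythm was tested by fitting a 24 h cosine, called at a nominal p of 0.01 or less. In control mice 2 of the 10 genes met it, where 20.0% of all genes did, and in IH mice 4 of the 10 did, where 39.9% did. Srxn1 was rhythmic in both, with its fitted peak at 1.6 h in control (p = 5.46e-04 by limma's F test, n = 18 libraries) and at 22.8 h in IH (p = 0.00481). Sod2 was rhythmic in both with its peak in the dark phase, at 15.8 h in control (limma p = 0.00760, n = 18) and 14.9 h in IH (limma p = 4.13e-06), with amplitudes of 3.88 and 5.01 FPKM.

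Gclc had the largest relative swing of the 4 genes rhythmic in IH, with an amplitude of 23.9 FPKM and a peak at 20.9 h (limma p = 1.35e-04, n = 18). Its IH values rose from 54.8, 55.9 and 44.3 FPKM at ZT12 to 106, 111 and 88.0 at ZT20. In control mice Gclc had an amplitude of 17.5 FPKM (limma p = 0.0389, n = 18). Nqo1 in IH peaked at 5.6 h with an amplitude of 0.850 FPKM (limma p = 0.00249, n = 18), and in control had an amplitude of 0.298 FPKM (limma p = 0.439). The calls of Nqo1, Gclc and Sod2 in IH held under all 46 alternatives, that of Sod2 in control was lost under 15, 12 of which left out 1 control mouse, that of Srxn1 in IH under 6 and that of Srxn1 in control with scaling by the median of ratios. Srxn1 in IH missed the threshold without ZT0 replicate 2, ZT12 replicate 1 or 3 or ZT20 replicate 1, and without the 3 libraries high in Saa1 (limma p = 0.0156, n = 17 IH libraries). Cat in IH, with a limma p of 0.0933 over all libraries, met the threshold without those 3 (limma p = 0.00123, n = 17 IH libraries). The difference between the rhythms of the conditions passed for 0 of 13215 genes (limma interaction F test), and at an unadjusted p under 0.05 for 649 genes, 4.91%, none of them among the 10. An F test over the 6 time points without a set shape called 18 genes, again none of the 10, with an adjusted p of 0.200 for Nfe2l2. Within IH the same F test put Nfe2l2 (limma p = 2.95e-04, n = 18), Txnrd1 (0.00106) and Cat (0.00588) within the threshold of 0.01, and Srxn1 (0.0362) outside it. The share of all genes within that threshold by this F test is not given here, and with the cosine it was 39.9% in IH.

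A wider list of 83 tested genes of the same pathways gave the setting. None of the 83 passed between IH and control in the hypoxic hours, in the remaining hours or in the interaction, with medians of 0.06, 0.01 and 0.07. Between the hours, 8 were higher and 9 lower in ZT0 to ZT8 in control mice, and 13 higher and 9 lower in IH mice. These are 17 of 83 (20.5%) in control and 22 of 83 (26.5%) in IH, near the 20.5% and 25.8% of all genes. Of all genes 15.4% were higher and 5.15% lower in control and 17.8% higher and 8.10% lower in IH, and the counts of the lists below are to be read against these shares. Of the 13 regulators and partners of NRF2, 3 were higher in control and 5 in IH, with 1 lower in IH. Mafk, a small MAF partner of NRF2, was higher by 0.43 in control and 0.56 in IH (limma adjusted p = 9.96e-04 and 2.37e-05). Sqstm1, the autophagy receptor p62 that binds KEAP1, was higher by 0.36 and 0.30, and Cul3, the ubiquitin ligase scaffold that KEAP1 recruits, by 0.19 and 0.20.

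Of the 18 detoxification and export genes, 1 was higher and 2 were lower in each condition. Gstm4, a glutathione transferase, was higher by 0.68 in control and 0.91 in IH. Cbr1, a carbonyl reductase, was lower by -0.59 and -0.41, and Gsta3, another glutathione transferase, by -0.40 and -0.44. Among the 11 genes of glutathione synthesis and recycling, the glutaredoxins Glrx (-0.48 in control, -0.41 in IH) and Glrx5 (-0.35 and -0.23) were lower in both, and 1 gene was higher in control. Among 10 peroxidases and peroxiredoxins, Prdx2 was lower in control (-0.28), and in IH, where none was called, it had a difference of -0.10 (limma adjusted p = 0.136).

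In the thioredoxin system of 11 genes, 2 were higher and 1 lower in control and 4 higher and 1 lower in IH. Txn2, the mitochondrial thioredoxin, was lower by -0.19 in both. Sesn1, a sestrin, was higher by 0.32 in control and 0.37 in IH, and Txnip, which binds and inhibits thioredoxin, by 0.49 and 0.96. Of the 7 heme and iron genes, 1 was higher and 1 lower in control and 2 higher in IH, with Hmox2, the constitutive heme oxygenase, higher by 0.15 in control and 0.36 in IH. Of the 7 NADPH genes, 1 was lower in control and 3 in IH, and of the 6 metallothioneins, other superoxide dismutases and selenoprotein P, 1 was lower in control and 1 higher in IH.

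At ZT4, 2 of the 83 passed between the conditions, both higher in IH, where 0.885% of all genes were. They are named here after their values were seen. Txnip was at 13.6, 23.4 and 11.5 FPKM in control and at 68.2, 42.8 and 46.0 in IH (1.67 ± 0.30, limma adjusted p = 0.00617). Slc40a1, the iron exporter ferroportin, was at 10.9, 19.0 and 13.5 FPKM in control and at 37.3, 44.1 and 37.4 in IH (1.42 ± 0.33, adjusted p = 0.0324). Both genes were separated between the conditions at this hour, where 26.7% of all genes were higher without overlap. As they were named by their calls at ZT4, this adds no separate evidence. At ZT8 the groups overlapped for both. Txnip was then at 65.6, 79.7 and 69.7 FPKM in control and at 73.6, 33.2 and 66.4 in IH, and Slc40a1 at 28.4, 44.3 and 33.9 in control and at 32.9, 40.6 and 35.2 in IH. Over ZT0 to ZT8 neither was called, with differences of 0.52 (adjusted p = 0.180) and 0.49 (adjusted p = 0.283) by limma. Keap1 at ZT4 had a difference of 0.05 ± 0.10 (adjusted p = 0.833). The median of the 83 at ZT4 was 0.11 and that of all genes 0.07.

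**Figure D4:**
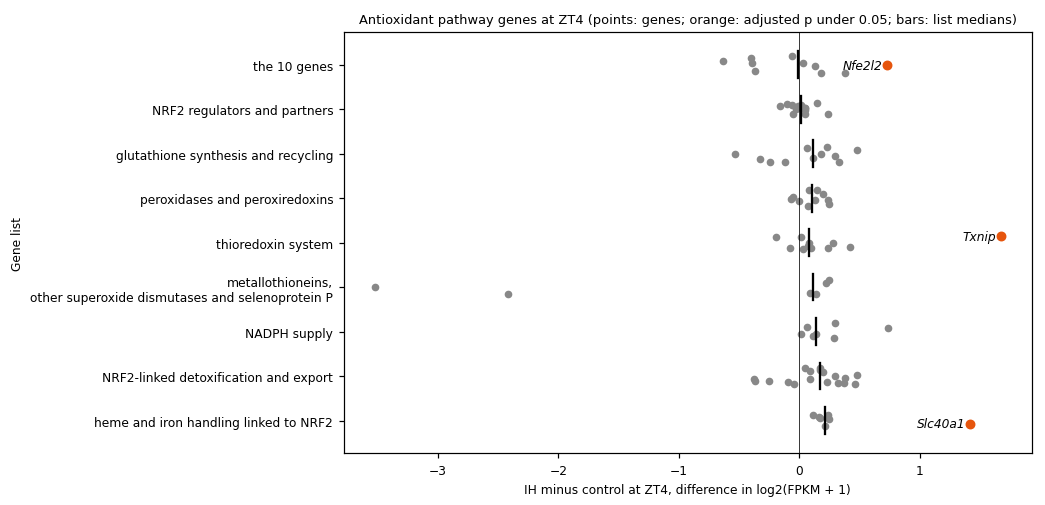
Difference between IH and control at ZT4 in log2(FPKM + 1) (horizontal axis) for the 10 genes and the 8 lists of pathway genes (rows), 1 point per gene, spread vertically for legibility, with black bars at the medians and orange for an adjusted p under 0.05. Nfe2l2, Txnip and Slc40a1 are the 3 called genes, and the 2 points at the far left are the metallothioneins Mt1 (-2.42 ± 1.75) and Mt2 (-3.52 ± 2.17), which were not called and were picked out after their values were seen.

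Likeness of time course was described by Pearson's r over the 12 means of condition and time point, which share libraries and depth, among the 9812 genes whose mean reached 1 FPKM. The 2 genes named for each are the highest of these, so a high r follows in part from the choice. The ranking was not redone without control ZT12 replicate 2. Srxn1 was most like Focad (r = 0.969) and Parp3 (0.952), Sod2 most like C1qbp (0.949) and Adh7 (0.936), Cat most like Fyco1 and Dnajc28 (both 0.978), Nqo1 most like Mthfs (0.948) and Ctsa (0.934), and Nfe2l2 most like Hsf2 and Pank4 (both 0.941). Gclc was most like Ergic1 (0.970) and Prkaca (0.949). Values for Gclm with Prpf38b (0.938) and Hook3 (0.875) fell to 0.516 and 0.548 without control ZT12 replicate 2, whereas those of Srxn1 and Sod2 moved by less than 0.01. Without that library Nfe2l2 was at 0.931 with Hsf2 and 0.736 with Pank4, and Gclc at 0.859 with Ergic1 and 0.863 with Prkaca.
Hmox1 was most like Cd14 (0.859) and Ssbp4 (0.852), Txnrd1 most like Farsb (0.924) and Fubp1 (0.904), and Gpx1 most like Irf7 (0.953) and Klk14 (0.870). In the same order, these values fell to 0.758 and 0.786, 0.714 and 0.824, and 0.799 and 0.732 without control ZT12 replicate 2. Within the 10 genes r ran from -0.63 for Sod2 and Cat to 0.84 for Gclc and Srxn1. Without control ZT12 replicate 2 it ran from -0.72 for Sod2 and Cat to 0.89 for Hmox1 and Txnrd1, a pair at 0.26 with it, and was 0.70 for Gclc and Srxn1.

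In GENCODE vM21 on GRCm38 the 10 genes are protein coding. Nfe2l2 lies at chr2:75675513-75704641 on the minus strand, Nqo1 at chr8:107388225-107403206 on the minus strand and Txnrd1 at chr10:82833951-82897712 on the plus strand. Nfe2l2, Gclm and Txnrd1 overlap other annotated genes on their own strand (Gm24996, Gm6061 and Eid3), and Gclm and Txnrd1 also on the other strand. The libraries were stranded, but whether strand was used in computing FPKM is not given in the sources used here, so reads of these overlaps may be shared.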

How the data were processed

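Per the labels, polyadenylated liver RNA was sequenced in 36 stranded libraries. The authors aligned reads to mm10 with TopHat2 2.1.1 running Bowtie2 and computed the deposited FPKM values with Cufflinks 2.2.1, per replicate. The annotation and any scaling are not given in the sources used here. No counts were used: total depth is unknown, and the steps of low FPKM values gave relative depths of 0.779 to 1.31 of the median library. The 2 tables share column names, so their conditions came from the table names.

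Symbols on more than 1 row (280) were left out. For the 13215 genes averaging 0.1 FPKM or more, log2(FPKM + 1) was fitted in R 4.3.3 with limma 3.58.1 (trend, 12 groups in 1 fit, two-sided, Benjamini-Hochberg adjusted p under 0.05). Rhythms used a 24 h cosine in place of BIO_CYCLE. Replicates were separate mice. Scripts were tested on simulated data. Figures used matplotlib 3.10.9.

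The members, lists and tests were chosen with earlier results of these data known. Named were all 10 members, up to 5 listed pathway genes per direction in each comparison of hours by smallest p, and the 2 most alike genes per member. Same-numbered mice of the 2 conditions correlated by 0.05 on average (-0.18 to 0.29 over 18 pairs, 0.14 to 0.29 at ZT12) and were not paired. Alternatives changed the pseudocount, filter, scaling, weights, window, libraries and rhythm test.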

Additional observations from a re-analysis of the deposited data

Results flagged for a closer look

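Of 40 groups of 9 libraries, 1 per gene, condition and set of hours, 8 held a library whose gap to the rest was large for the range of its group by Dixon's test, which chance gives in about 1 of 20 groups. The groups pool 3 time points, so a daily change also enters the gap. Control ZT12 replicate 2 stood apart in 4 groups, with Gclm at 20.9 FPKM (nearest 42.1), Hmox1 at 15.7 (nearest 9.98), Txnrd1 at 17.5 (nearest 34.5) and Gpx1 at 2123 (nearest 1438). Nqo1 stood apart at 4.64 FPKM in control ZT12 replicate 1 (nearest 2.85). In the hypoxic hours of IH mice, Gclc stood apart at 117 FPKM in ZT0 replicate 3 (nearest 77.5). IH ZT0 replicate 2 stood apart with Cat at 846 FPKM (nearest 1125) and Gpx1 at 1002 (nearest 1151), and this library had Saa1 at 22865 FPKM.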

How the results depend on the processing

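No called difference of the 10 genes changed sign under any alternative run. Of 5010 values of their differences under the alternatives, 127 had the other sign than over all libraries with the settings of the report, none of them called, and in 15 both values were at least 0.1 from 0. Of these 15, 11 were at ZT12: with sample weights Gclc went from 0.21 to -0.37, Gclm from 0.19 to -0.27, Cat from 0.14 to -0.19 and Gpx1 from -0.23 to 0.11, without control ZT12 replicate 2 or without the libraries high in Saa1 Gclc went to -0.46, Gclm to -0.30 and Cat to -0.26, and without control ZT12 replicate 1 Nqo1 went from -0.20 to 0.10. The other 4 were Gclc at ZT0, from -0.14 to 0.11 without IH ZT0 replicate 2, and Hmox1 at ZT16, from -0.14 to 0.12 without control ZT16 replicate 3, each also without the libraries high in Saa1. Of the 10 genes in the hypoxic hours, none was called under the other alternatives, but Nfe2l2 (1 gene) was with ZT0 left out of the window and Nqo1 (1 gene) without the 3 libraries high in Saa1, an alternative chosen after seeing the data. These 2 fits called 269 and 705 of the 13215 genes, against 35 with the settings of the report. At ZT4, where Nfe2l2 was called, 0 of the 10 were called with FPKM rescaled to a common sum, 2 with scaling by the median of ratios (Nfe2l2, Txnrd1), 6 with sample weights (also Nqo1, Gclc, Hmox1, Txnrd1 and Srxn1) and 3 without the libraries high in Saa1 (Nfe2l2, Hmox1, Txnrd1). The calls over all 13215 genes at ZT4 were 3253 with sample weights and 1344 without those libraries, against 153. With the common sum they were 50. Of the 2 genes rhythmic in control, 1 was called with the common sum, the median of ratios, the replicate block or the F test over 6 time points. The counts over all genes for these rhythm fits, and with the median of ratios at ZT4, are not given here. Leaving out 1 library at a time gave 0 to 2 of the 10 at ZT4, 0 to 3 at ZT12 (3 without control ZT12 replicate 3), 2 to 5 between the hours in control (5 without control ZT12 replicate 1), 2 to 4 between the hours in IH, 1 to 2 for rhythm in control and 3 to 4 for rhythm in IH. Over all 13215 genes the same fits called 2290 to 3575 for rhythm in control, against 2648. For rhythm in IH they called 4722 to 5601, against 5273. Between the hours in IH they called 2898 to 4771, against 3416. Over all genes, 3122 were called at ZT12 without control ZT12 replicate 3, against 102. Between the hours in control, 3873 were called without control ZT12 replicate 1, against 2712. At ZT4, 799 were called without control ZT12 replicate 2, against 153. Single calls also came for Gclc and Txnrd1 between the hours in control without control ZT12 replicate 1, Cat between the hours in IH with sample weights, Gclc for rhythm in control with a shared spread, and Cat for rhythm in IH without IH ZT0 replicate 2. At ZT12, Txnrd1, Hmox1 and Gpx1 were called without control ZT12 replicate 3, and Txnrd1 without its replicate 1. Low genes are limited by a depth that is not known.

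The cause of the following changes was not tested. Over all genes, IH against control in ZT0 to ZT8 called 35 genes, and 22 with a pseudocount of 0.1, 19 with a filter at 1 FPKM, 16 with the common sum, 71 with quantile normalization, 490 with sample weights, 269 with ZT0 left out, 95 with the libraries of the window alone and 705 without those high in Saa1. In ZT12 to ZT20 the 11 genes became 3 with no filter, 6 with the median of ratios, 2 with quantile normalization, 17 with sample weights, 1 with the libraries of the window alone and 5 without those high in Saa1. The 3 genes of the interaction became 1 with no filter, 1 with the common sum, 6 with the median of ratios, 18 with sample weights, 32 with ZT0 left out and 8 without those high in Saa1. Between the hours in IH, 3416 became 5240 with sample weights. At ZT0 the 0 genes became 10 with no filter, 1 with a filter at 1 FPKM, 1 with the common sum, 2 with the median of ratios and 4 with quantile normalization. At ZT4 the 153 became 50 with the common sum, 3253 with sample weights and 1344 without those high in Saa1. At ZT8 the 1 gene became 0 with a pseudocount of 0.1 or a filter at 1 FPKM, and 242 with sample weights. At ZT12 the 102 became 25 with no filter, 1 with the common sum, 217 with the median of ratios, 221 with quantile normalization, 2 with sample weights and 0 without those high in Saa1. At ZT16 the 1 gene became 0 with the common sum or the median of ratios, 29 with sample weights and 4 without those high in Saa1, and at ZT20 0 became 29 with sample weights. The rhythm difference went from 0 to 18 genes with the F test. Leaving out 1 library gave 15 to 407 genes in ZT0 to ZT8, 2 to 49 in ZT12 to ZT20, 1 to 21 for the interaction, 2139 to 3873 and 2898 to 4771 between the hours in control and IH, 0 to 25 at ZT0, 22 to 799 at ZT4, 0 to 2 at ZT8, 0 to 3122 at ZT12, 0 to 3 at ZT16 and 0 to 1 at ZT20. Without control ZT12 replicate 2 the counts were 407 in ZT0 to ZT8, 799 at ZT4 and 0 at ZT12, and without its replicate 3, 3122 at ZT12. With the replicate number as a block, 102 calls at ZT12 became 1, and 1 of the 10 genes was rhythmic in control. Deviations of same-numbered mice correlated by over 0.1 in all 3 pairs at ZT12 (0.29, 0.27 and 0.14), but in 5 of 18 pairs over all hours, so the numbers were not taken as pairs. The block changed no other count by over 1.5 times. Median differences over all genes moved to 0.10 at ZT4 with a pseudocount of 0.1 and to 0.11 at ZT12 with the common sum.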
